A study of Mus musculus with 2 samples.

Results

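Ccl3 and Ccl4 encode the CC chemokines also called MIP-1 alpha and MIP-1 beta, and are described here cell by cell in microglia of the embryonic mouse brain. The members were the rows of both count matrices with these gene symbols, 2 of 31053 features. Cells positive for Cd11b and Cd45 had been sorted from the hypothalamic and thalamic region of E15.5 CD1 embryos and profiled with 10x Genomics 3′ chemistry, version 3. The control library pooled 10 embryos of 1 untreated wild-type dam. The stressed library pooled 5 embryos of 1 CD1 dam that had been held at 4 °C for 30 min per day over 5 days, from E11.5 to E15.5. Neither group carried a transgene, and both were stained and sorted in the same way.

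CC chemokines are small secreted proteins that bind receptors on leukocytes and draw those cells along a gradient. Ccr1 is a receptor of Ccl3. In macrophages and microglia both genes are known as inducible transcripts that are switched on within hours of an activating stimulus, together with immediate early and NF-kB response genes. They are also among the genes known to be induced in microglia during tissue dissociation.

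The genes are close neighbours on chromosome 11 of GRCm38, with 3 exons each, per the GENCODE annotation. Ccl3 (ENSMUSG00000000982) lies on the minus strand at chr11:83647844-83649355. Ccl4 (ENSMUSG00000018930) lies on the plus strand at chr11:83662584-83664683. The 2 genes point away from each other across 13228 bases in which no other gene is annotated, and no annotated gene overlaps either of them. Because their transcripts varied together from cell to cell, the 250 bases before the RefSeq start of Ccl3 (GRCm38.p6, chr11:83649379-83649628, minus strand) are printed, read 5′ to 3′, with matches to the searched motifs in capitals. The RefSeq promoter table matched 1 of the 2 members, Ccl3.

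Ccl3: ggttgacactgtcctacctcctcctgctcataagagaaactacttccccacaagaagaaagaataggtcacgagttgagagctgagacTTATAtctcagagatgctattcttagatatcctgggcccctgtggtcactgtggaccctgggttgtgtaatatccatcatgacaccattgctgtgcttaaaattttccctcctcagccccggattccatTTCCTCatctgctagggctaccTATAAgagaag

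The capitals mark the core of the TATA box, which has the letters TATAA, on the printed strand and once in reverse, and the core of the ETS family of factors, searched as GAGGAA and found here in reverse. The TATA core begins 11 bases before the start, and its reverse copy 162 bases before it. The ETS core begins 33 bases before the start. Counting both strands, the TATA core occurs in 22.8% of 32851 RefSeq promoter windows and the ETS core in 23.3%. Not found on either strand were the AP-1 site, searched as TGANTCA and present in 6.75% of promoters, and the CRE site, searched as TGACGTCA and present in 1.55%. The NF-kB motif, present in 1.41% of promoters, and the C/EBP motif with the letters TTGCNNAA, present in 9.56%, were also not found in this window. The matched motifs do not overlap. These distances count from the RefSeq start, which lies outside the GENCODE gene end given above.

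With 1 library per condition, no test between conditions was possible, and condition, dam, litter, embryo sex and library cannot be told apart. The libraries held 1156 control and 1467 stressed barcodes, of which 1068 and 1407 passed the filters on cell quality. The stressed library was deeper, with a median of 3767 UMIs (unique molecular identifiers, 1 per captured transcript) per barcode against 1947.5. By markers, 695 control and 1148 stressed cells were microglia-like. Of 12 microglial markers, 11 control and 12 stressed were over 50 CPM in them, and these markers summed to 8524 and 8911 CPM (counts per 1000000 UMIs of the cell set), and neural markers to 50.3 and 47.2. Microglia-like cells with Xist and no Y-linked UMI numbered 230 control and 1060 stressed, and cells with a Y-linked UMI and no Xist numbered 134 and 0. The libraries shared 13 barcode sequences, of which 0 control and 1 stressed were microglia-like, and leaving them out gave a log2 ratio of stressed to control of 0.24 for Ccl3 and -0.10 for Ccl4.

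Both chemokines came almost wholly from microglia-like cells. In retained cells, 96.9% of the control and 97.7% of the stressed UMIs of Ccl3 came from this class, and for Ccl4 94.3% and 97.3%. There Ccl3 stood at 471 CPM in the control (interval 440 to 503) and 556 CPM in the stressed library (536 to 577). Ccl4 stood at 310 CPM (285 to 337) and 290 CPM (275 to 305). All intervals are exact 95% intervals that cover counting error only. They treat UMIs as independent, although the UMIs of both genes were gathered in few cells, so they are narrower than the uncertainty between litters.

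Neither member passed a 1.5-fold difference between the libraries (0 of 2), against 3.63% of the 2564 genes measured in the class. The log2 ratio of stressed to control was 0.24 for Ccl3 (0.13 to 0.35) and -0.10 for Ccl4 (-0.24 to 0.04), where the median over all 2564 genes was -0.07. Within cells with Xist and no Y-linked UMI, the ratio was 0.51 for Ccl3 (0.32 to 0.70) and 0.77 for Ccl4 (0.49 to 1.06). The Ccl4 ratio thus changed sign in this subset, for a reason that was not tested. Levels also differed between sets of cells inside the control library. There, Ccl4 stood at 176 CPM in the 230 Xist cells and at 467 CPM in the 134 Y-positive cells, a log2 difference of -1.41 (-1.76 to -1.07). Ccl3 stood at 399 and 575 CPM in the same cells, a log2 difference of -0.53 (-0.79 to -0.27). The share of cells with a UMI at 1000 UMIs per cell was 9.50% and 8.46% for Ccl4 and 24.4% and 26.2% for Ccl3, so the 2 sets of cells were near each other in how many cells carried the genes. The highest cell held 21 Ccl4 UMIs among the Xist cells and 46 among the Y-positive cells. The rest of the 695 control cells were in neither set, among them the cell with most Ccl4 UMIs, 50.

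Outside the microglia-like class both genes were lower. A haemoglobin and vascular cluster that could not be named (45 control and 27 stressed cells) came next, with Ccl3 at 132 CPM (63.4 to 243) and 98.9 CPM (58.6 to 156). Border-associated-like macrophages, the other resident macrophage class, had Ccl3 at 47.1 CPM (25.8 to 79.0) and 71.0 CPM (39.7 to 117). Monocyte or granulocyte-like cells had 26.4 and 36.7 CPM, from 2 and 5 UMIs, so they do not differ from the macrophages beyond counting error. Neural-like cells, which should lack these genes, had 4.33 control CPM (0.525 to 15.7) and 38.6 stressed CPM (26.1 to 55.1). At 1000 UMIs per cell, 0.538% of control and 2.38% of stressed neural-like cells had a Ccl3 UMI, against 22.1% and 20.9% of microglia-like cells. The median depth was 1542 and 3238 UMIs in the neural-like and 2169 and 3905 UMIs in the microglia-like cells.

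Ccl4 outside microglia depended on very few cells, except in the control cells of the unnamed cluster. In border-associated-like macrophages it stood at 57.2 CPM in the control, but 14 of its 17 UMIs were in 1 cell, and the stressed macrophages held 1 UMI in all (4.73 CPM). Monocyte or granulocyte-like cells held 1 UMI in each library. In neural-like cells Ccl4 had 3 control UMIs (6.50 CPM) and 26 stressed UMIs (33.5 CPM), of which the highest cell held 16. The unnamed cluster had 172 CPM (91.6 to 294) and 76.9 CPM (42.0 to 129), with 11 of its 14 stressed UMIs in 1 cell. Its 13 control UMIs lay in 10 of 45 cells, with at most 4 in a cell.

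Set against microglial marker transcripts in the same cells, the Ccl3 counts outside microglia were mostly in proportion or lower. Microglia-like cells had 5.52 Ccl3 UMIs per 100 UMIs of the 12 microglial markers among control and 6.24 among stressed cells. The unnamed cluster had 4.00 (1.92 to 7.36) and 4.33 (2.56 to 6.84), intervals that include the control microglia-like value. Neural-like cells had 1.39 (0.168 to 5.02) and 2.97 (2.01 to 4.24), and border-associated-like macrophages 2.04 (1.12 to 3.42) and 1.66 (0.932 to 2.75). For Ccl4, microglia-like cells had 3.64 control and 3.25 stressed UMIs per 100 marker UMIs. The unnamed cluster had more, 5.20 (2.77 to 8.89) and 3.37 (1.84 to 5.65), with intervals that include the microglia-like values. Neural-like cells had 2.08 (0.430 to 6.09) and 2.58 (1.68 to 3.78), and border-associated-like macrophages 2.48 (1.44 to 3.97) and 0.111 (0.0028 to 0.618). Microglial markers summed to 312 and 1299 CPM in the neural-like class, so they moved with the chemokines there. The part of free RNA or doublets in those values was not tested.

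**Figure D1:**
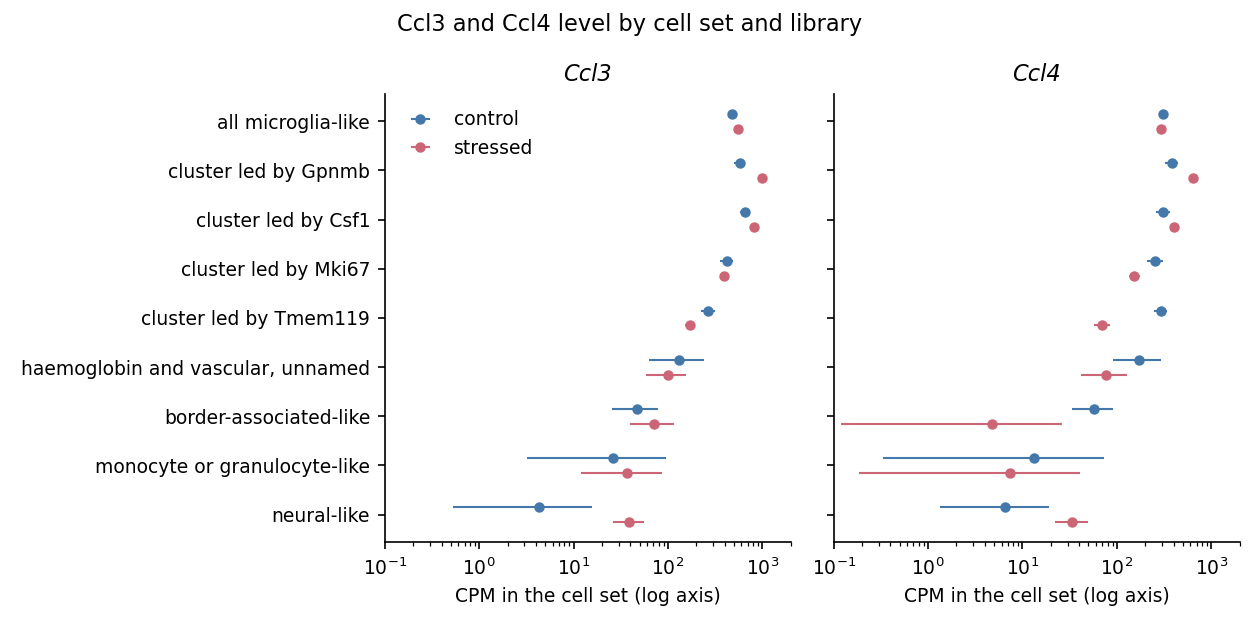
Level of Ccl3 (left) and Ccl4 (right) in each cell set, in CPM on a log axis, with the control library in blue and the stressed library in red. Points are sums over the cells of a set and bars are exact 95% counting intervals. Both genes are between 290 and 556 in microglia-like cells and at 172 or less in all other classes.

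The microglia-like cells formed 4 clusters, built without Ccl3, Ccl4 and sex-linked genes and named here by their leading gene. The first was led by Gpnmb, Spp1 and Fabp5 (97 control and 142 stressed cells), genes of phagocytic and lipid-handling microglia. The second was led by Csf1 and Rcan1 (177 and 292 cells), Csf1 being the ligand that sustains microglia. The third was led by Mki67, a marker of dividing cells (122 and 228 cells). The fourth was led by Tmem119, Slc2a5 and P2ry12, genes of homeostatic microglia (299 and 486 cells). The shares of the class were alike in both libraries, at 13.96% and 12.4% for the Gpnmb cluster, 25.5% and 25.4% for the Csf1 cluster, 17.6% and 19.9% for the Mki67 cluster and 43.0% and 42.3% for the Tmem119 cluster.

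Ccl3 was highest in the Csf1 and Gpnmb clusters and lowest in the Tmem119 cluster of both libraries. In the control, the levels were 651 CPM in the Csf1 cluster (580 to 730), 573 in the Gpnmb cluster (505 to 648), 418 in the Mki67 cluster (357 to 486) and 267 in the Tmem119 cluster (225 to 315). The first 2 of these do not differ beyond counting error. In the stressed library, the Gpnmb cluster led with 999 CPM (939 to 1063), before the Csf1 cluster with 811 (763 to 860), the Mki67 cluster with 390 (357 to 425) and the Tmem119 cluster with 170 (150 to 193). At 1000 UMIs per cell, a Ccl3 UMI was found in 32.0% and 40.8% of cells of the Gpnmb cluster, 34.7% and 33.2% of the Csf1 cluster, 17.5% and 12.7% of the Mki67 cluster and 12.7% and 11.6% of the Tmem119 cluster.

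Ccl4 followed the same order in the stressed library, and its levels lay closer together in the control. The stressed levels were 647 CPM in the Gpnmb cluster (598 to 699), 398 in the Csf1 cluster (365 to 433), 153 in the Mki67 cluster (133 to 176) and 69.6 in the Tmem119 cluster (56.8 to 84.4). The control levels were 380 (325 to 442), 310 (261 to 366), 256 (209 to 311) and 292 CPM (247 to 342) in the same clusters. The shares of cells at equal depth were 13.4% and 23.2% in the Gpnmb cluster, 16.2% and 8.90% in the Csf1 cluster, 5.83% and 5.70% in the Mki67 cluster and 4.73% and 3.10% in the Tmem119 cluster. Most of these intervals overlapped. The exceptions were the Csf1 against the Tmem119 cluster in each library and the Gpnmb against every other cluster in the stressed library. In the Tmem119 cluster 3 cells held 63.4% of the control Ccl4 UMIs (50, 29 and 18 UMIs) and 62.1% of the stressed ones (33, 20 and 11 UMIs). In the Mki67 cluster 3 cells held 87.4% of the control UMIs (38, 32 and 20) and 59.6% of the stressed ones (84, 20 and 17).

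Both genes were higher in the stressed than in the control library within the Gpnmb cluster. The log2 ratio there was 0.80 for Ccl3 (0.60 to 1.00) and 0.77 for Ccl4 (0.52 to 1.02). In 6 other ways of counting that were added after the values had been seen, it stayed between 0.76 and 1.00 for Ccl3 and between 0.72 and 1.47 for Ccl4. They left out the highest cells, the likeliest doublets, cells of lower quality, cells other than Xist cells or cells with more immediate early UMIs, or set all cells to 1000 UMIs. The number of cells with at least 5 UMIs of the pair after setting each cell to 1000 UMIs was 4 of 97 in the control (4.12%, 1.13 to 10.2) and 19 of 142 in the stressed cluster (13.4%, 8.25 to 20.1).

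In the other clusters the ratio went down or depended on how it was counted. In the Tmem119 cluster it was -0.65 for Ccl3 (-0.95 to -0.34) and -2.07 for Ccl4 (-2.44 to -1.70). In Xist cells of that cluster it was -0.43 for Ccl3 (-0.91 to 0.09) and -0.14 for Ccl4 (-0.95 to 0.78). In the Csf1 cluster it was 0.32 for Ccl3 and 0.36 for Ccl4, and with all cells at 1000 UMIs -0.037 and -0.29. In the Mki67 cluster it was -0.10 for Ccl3 and -0.74 for Ccl4, and in Xist cells 1.41 and 2.81. Whether these ratios differ between clusters beyond the spread between litters could not be tested with 1 library per condition.

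Ccl3 and Ccl4 were unevenly spread over microglia-like cells, Ccl4 more than Ccl3. No UMI of Ccl3 was found in 456 of the 695 control and 690 of the 1148 stressed cells, 1 UMI in 93 and 158 cells, and 10 or more in 17 and 80 cells. Those 17 and 80 cells held 31.8% and 63.3% of all its UMIs. The minimum of 10 was applied at full depth, with medians of 2169 control and 3905 stressed UMIs per cell. Counts and shares past it are therefore not compared between libraries. The highest cell held 35 Ccl3 UMIs among control and 96 among stressed cells. Ccl4 had no UMI in 604 and 972 cells, and the 17 and 38 cells with 10 or more held 69.5% and 78.0% of its UMIs. Its highest cells held 50 and 91 UMIs, and the control cell with 50 gave 3.01% of all its 1662 UMIs to this gene.

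As few as 10 control and 15 stressed cells accounted for 50% of all Ccl4 UMIs, against 39 and 48 cells for Ccl3. The cells in the top 1% (7 control and 12 stressed) held 18.2% and 22.9% of Ccl3 UMIs. For Ccl4 the control share of 42.9% is matched by 43.9% in the stressed library. The Fano factor (variance over mean) at 1000 UMIs per cell was 2.85 and 3.97 for Ccl3 and 10.4 and 5.75 for Ccl4, and is close to 1 where cells differ by counting alone. Genes with a mean within a factor of 2 of that of Ccl4 had a median of 1.05 in the control (661 genes) and 1.04 in the stressed library (800 genes), and 0 and 2 of them exceeded Ccl4. Those 2 were Hmox1, which encodes the haem-degrading enzyme haem oxygenase, and Lepr, the leptin receptor. For Ccl3, 4 of 445 control genes (Ccl4, Exosc2, Hmox1 and Xist) and 3 of 398 stressed genes (Ccl4, Hmox1 and Lepr) had a higher value.

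**Figure D2:**
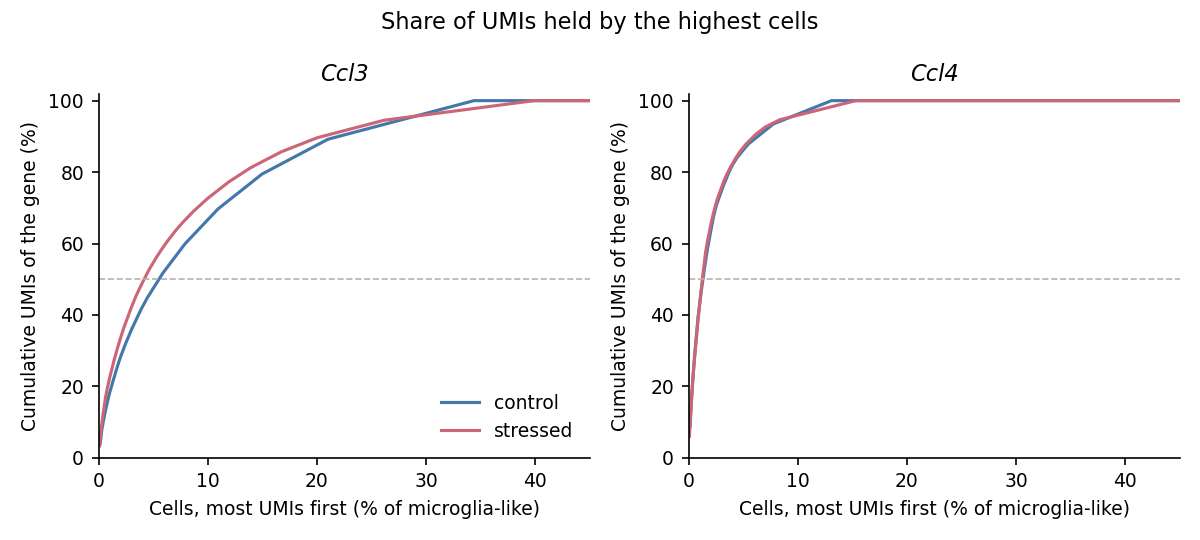
Cumulative percentage of the UMIs of Ccl3 (left) and Ccl4 (right) over microglia-like cells ranked from most to fewest UMIs, control in blue and stressed in red. The dashed line marks 50% of UMIs, which 39 control and 48 stressed cells reach for Ccl3 and 10 and 15 cells for Ccl4.

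The 2 genes occurred in the same cells more often than the product of their separate shares. At 1000 UMIs per cell, 39 of 665 control cells (5.86%) and 54 of 1146 stressed cells (4.71%) had both, where that product gives 13.5 and 18.2 cells. A further 108 and 186 cells had Ccl3 only, 22 and 33 had Ccl4 only, and 496 and 873 had neither. Among cells with Ccl4, 63.9% of the control (50.6 to 75.8) and 62.1% of the stressed cells (51.0 to 72.3) also had Ccl3, against 17.9% and 17.6% of cells without Ccl4. Read the other way, 26.5% and 22.5% of Ccl3 cells had Ccl4, against 4.25% and 3.64% of cells without Ccl3. Most Ccl4 cells also had Ccl3, while most Ccl3 cells had no Ccl4 UMI at this depth.

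The share of cells with Ccl3 was higher among Ccl4 cells than among other cells in each of the 4 clusters of both libraries, from 7 to 33 Ccl4 cells per set. The share of Ccl4 cells that also had Ccl3 was 61.5% and 72.7% in the Gpnmb cluster, 67.9% and 65.4% in the Csf1 cluster, 85.7% and 61.5% in the Mki67 cluster and 46.2% and 33.3% in the Tmem119 cluster. The corresponding shares among cells without Ccl4 were 27.4% and 31.2%, 28.3% and 30.1%, 13.3% and 9.77%, and 11.1% and 10.9%. The intervals of each pair overlapped in the control Gpnmb cluster (31.6 to 86.1 against 18.2 to 38.2) and in the stressed Tmem119 cluster (11.8 to 61.6 against 8.20 to 14.05), and not in the other 6. The Gpnmb cluster of the stressed library had the largest share of cells with both among the 8 sets of cells, 16.9% (11.1 to 24.1), against 8.25% (3.63 to 15.6) in the control.

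Levels were linked as well as detection. Cells with a Ccl4 UMI had 1.90 Ccl3 UMIs per cell among control and 2.45 among stressed cells, and cells without one had 0.288 and 0.297. Cells with a Ccl3 UMI had 1.10 and 0.842 Ccl4 UMIs per cell, and cells without one 0.0811 and 0.0706. Across cells, Pearson's r of log counts per 10000 was 0.45 in the control (695 cells) and 0.48 in the stressed library (1148 cells), and Spearman's rho 0.39 and 0.38. Within the 69 and 130 cells that had both genes at full depth, r was 0.46 and 0.50. These are descriptions, since the points are cells of 1 library and share its depth.

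**Figure D3:**
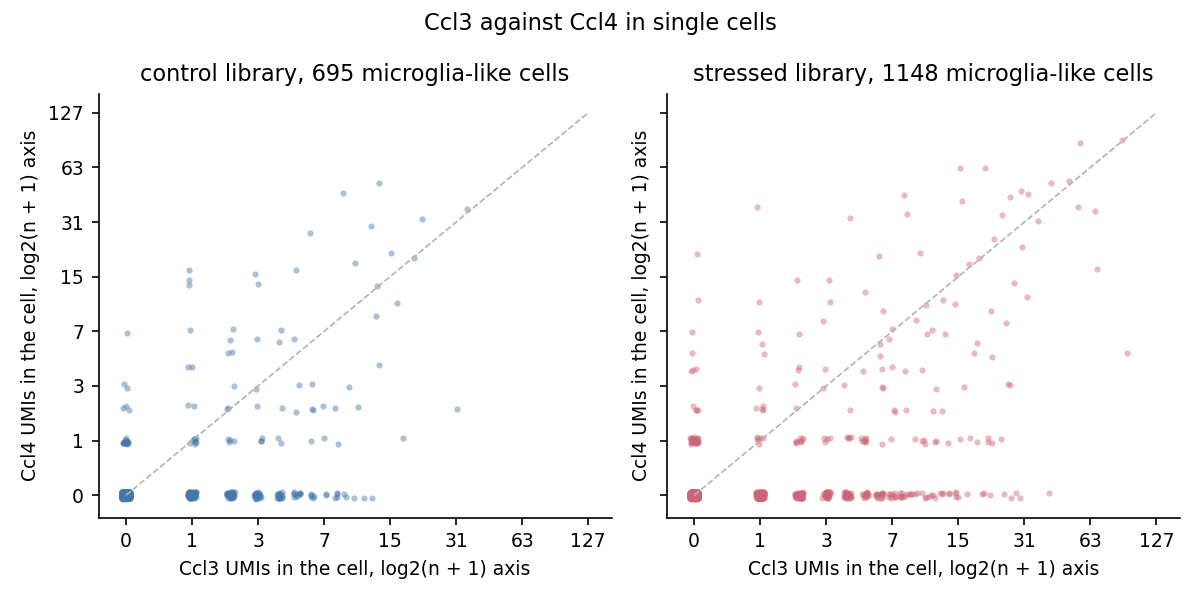
Ccl3 UMIs (x axis) against Ccl4 UMIs (y axis) in each microglia-like cell at full depth, both on a log2(n + 1) axis, in the control (left, blue) and the stressed library (right, red). Each point is a cell, moved at random by a little to show overlap, and the dashed line marks equal counts. Cells with many Ccl4 UMIs mostly carry Ccl3 too, while many cells with several Ccl3 UMIs have no Ccl4.

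Among cells with the most chemokine transcripts, the balance of the 2 genes varied widely. At full depth, 30 control cells (4.32%) and 104 stressed cells (9.06%) had at least 10 UMIs of the pair, and they held 53.9% and 74.7% of all its UMIs. Depth differed between those cells, with medians of 3198.5 and 5950.5 UMIs. With every cell at 1000 UMIs and a minimum of 5, the shares were 3.01% (1.85 to 4.61) and 3.66% (2.65 to 4.92). The Ccl3 part of the pair ranged from 5.56% to 100% per cell in the control, with a median of 43.6%, and from 0% to 100% in the stressed library, with a median of 75.5%. Over 80% Ccl3 was seen in 6 of 30 control and 46 of 104 stressed cells, and under 20% in 7 and 10 cells. The Ccl3 part was taken at full depth only, so it is not compared between libraries. The cell with most of the pair had 35 Ccl3 and 38 Ccl4 UMIs in the control, in the Mki67 cluster, and 89 and 91 in the stressed library, in the Csf1 cluster.

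Summed over the class, there were 1.52 Ccl3 UMIs per Ccl4 UMI in the control (1.36 to 1.69) and 1.92 in the stressed library (1.80 to 2.04). The ratio was alike in the Gpnmb cluster, at 1.51 and 1.54, and in the Csf1 cluster, at 2.10 and 2.04. In the Tmem119 cluster it was 0.915 (0.722 to 1.16) and 2.45 (1.94 to 3.11), and in the Mki67 cluster 1.63 (1.27 to 2.11) and 2.55 (2.16 to 3.01). These 2 clusters rested on few Ccl4 cells. In the Tmem119 cluster 3 cells held 63.4% of the control and 62.1% of the stressed Ccl4 UMIs, and in the Mki67 cluster 87.4% and 59.6%. Their difference between libraries is therefore not read further. Leaving out the 1% of cells with most UMIs of either gene gave 2.28 and 2.99 over the class. UMIs of 3′ libraries count molecules and do not scale with transcript length, so these ratios compare captured molecules.

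Both chemokines were higher in cells with more immediate early and NF-kB response transcripts. Cells were ranked within each library by the share of UMIs from a gene list and split into tertiles. From the lowest to the highest tertile by immediate early genes, which encode rapidly induced regulators such as Fos, Jun and Egr1, Ccl3 went from 297 to 695 CPM in the control and from 314 to 901 CPM in the stressed library. Ccl4 went from 139 to 725 CPM and from 38.2 to 656 CPM. By NF-kB response genes, Ccl3 went from 228 to 786 and from 248 to 952 CPM, and Ccl4 from 158 to 613 and from 86.2 to 647 CPM. The intervals of the lowest and highest tertile did not overlap in any of these 8 comparisons of CPM. In shares of cells at 1000 UMIs the intervals overlapped in the control by immediate early genes. There a Ccl3 UMI was found in 19.3% (14.3 to 25.1) and 23.6% (18.04 to 29.9) of the lowest and highest tertile. For Ccl4 the same shares were 5.38% (2.81 to 9.21) and 13.2% (8.96 to 18.5).

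In CPM, other lists gave less uniform differences over both genes. By activation genes such as Spp1 and Cd9, Ccl3 went from 256 to 632 CPM in the control and from 240 to 692 CPM in the stressed library. Ccl4 was 308 and 322 CPM in the control, with overlapping intervals, and 169 and 388 CPM in the stressed library. At equal depth, the share of cells with Ccl3 went from 10.7% (6.90 to 15.6) to 32.0% (26.0 to 38.5) in the control. In the stressed library it went from 9.42% (6.69 to 12.8) to 28.3% (23.8 to 33.1). These Ccl3 intervals did not overlap in either library. The Ccl4 share went from 6.05% to 12.9% in the control, with overlapping intervals. In the stressed library it went from 3.40% to 11.8%, without overlap. By resting microglia genes such as P2ry12, Ccl3 was lower in the highest tertile, at 334 against 556 CPM in the control and 329 against 631 CPM in the stressed library. Ccl4 was 304 against 313 CPM in the control and 164 against 242 CPM in the stressed library. By heat shock genes, Ccl3 went from 413 to 521 CPM and from 400 to 664 CPM. Ccl4 was 377 and 336 CPM in the control and 177 and 296 CPM in the stressed library. For both genes the intervals of the lowest and highest tertile overlapped in the control and not in the stressed library.

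**Figure D4:**
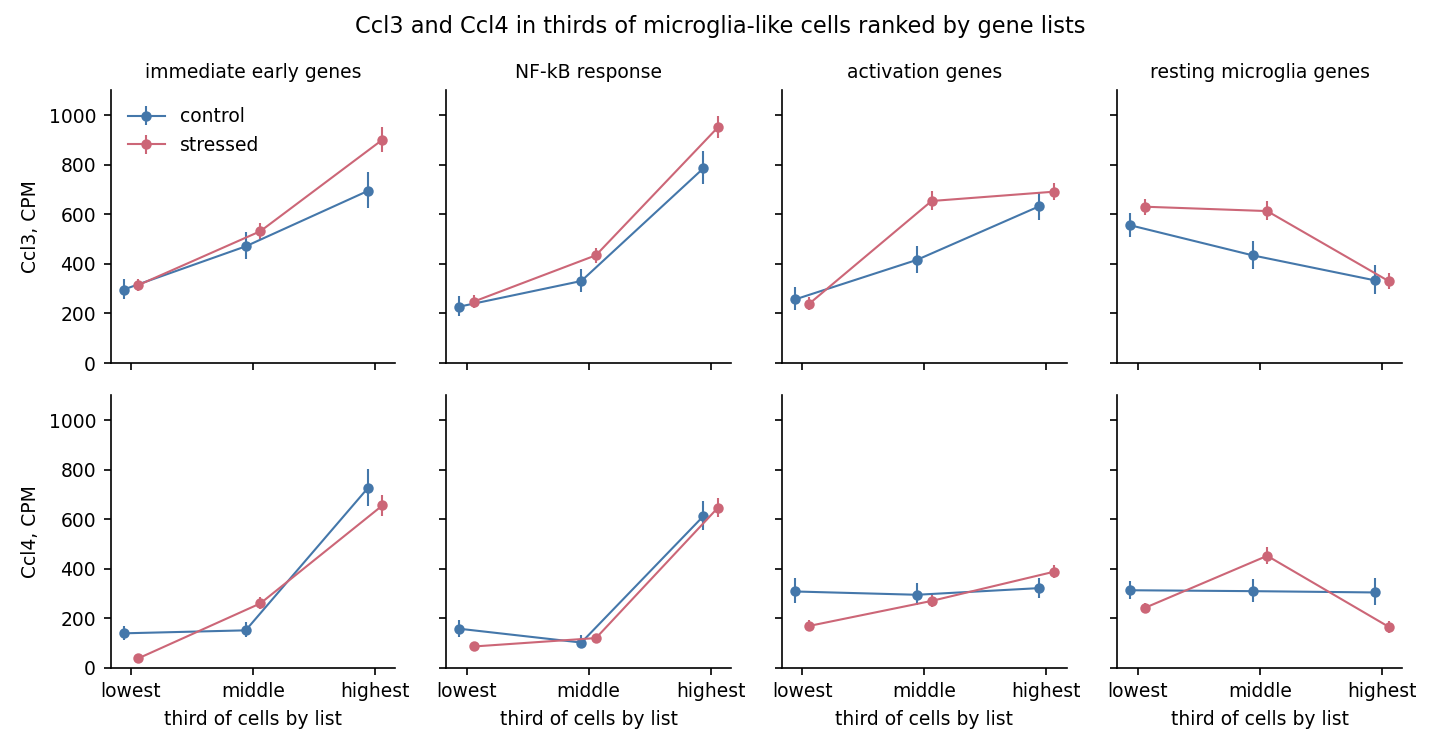
Ccl3 (top) and Ccl4 (bottom) in CPM, in microglia-like cells split into tertiles by their share of UMIs from 4 gene lists, control in blue and stressed in red. Points are sums over the cells and bars are exact 95% counting intervals. Immediate early and NF-kB response genes separate both chemokines, with Ccl4 at 725 and 656 in the highest tertile by immediate early genes, while resting microglia genes run the other way for Ccl3.

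Cells with several S phase transcripts had less of both genes, while cells with 1 or 2 did not in the stressed library. Cells with 3 or more UMIs of S phase genes had 191 CPM Ccl3 in the control (136 to 261) and 279 in the stressed library (240 to 323), against 532 (489 to 577) and 592 (565 to 621) in cells with none. For Ccl4 the levels were 14.7 CPM from 3 UMIs in 65 control cells and 71.3 CPM in 129 stressed cells, against 388 and 309 CPM. Cells with 1 to 2 such UMIs had 466 and 603 CPM of Ccl3 and 266 and 345 CPM of Ccl4. The share of cells with a Ccl4 UMI at 1000 UMIs was 1.54% and 3.10% in the S phase cells and 10.1% and 8.08% in the cells with none, with overlapping intervals. In cells with 3 or more UMIs of G2 and mitosis genes, Ccl3 stood at 408 and 344 CPM, against 523 and 627 CPM in cells with none. Ccl4 stood at 313 and 58.0 CPM in those cells, against 362 and 347 CPM. The control level of 313 CPM came from 7 cells, of which the highest held 38 UMIs. The share of those cells with a Ccl4 UMI at 1000 UMIs was 7.07% (2.89 to 14.03) in the control. In the stressed library it was 4.82% (2.10 to 9.27), an interval that overlaps the control one. The CPM values of this set are therefore not compared between libraries.

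The genes most like Ccl3 from cell to cell were Csf1, Cd9, Fabp5, Rab7b, Rcan1, Atf3, Ftl1 and Spp1, by the mean of the 2 libraries' Pearson r among 2213 genes of at least 50 CPM. The r with Csf1, the ligand of the microglial survival receptor, was 0.40 in 695 control and 0.49 in 1148 stressed cells. For Cd9, a tetraspanin, it was 0.33 and 0.34. For Fabp5, a fatty acid carrier, it was 0.32 and 0.34. The genes most like Ccl4 were Atf3, Csf1, Rcan1, Fam20c, Ftl1, Cstb, Rhoc and Vat1. Atf3, a stress-induced transcription factor, had an r of 0.35 and 0.44, and Rcan1, an inhibitor of calcineurin, 0.26 and 0.32. By that mean the partner gene ranked above all of them. In the stressed library alone, the r of Ccl3 was 0.488 with Csf1 and 0.483 with Ccl4. The median r over all genes was 0.04 for Ccl3 and 0.02 for Ccl4. Cells of 1 library share its depth and free RNA, so these values describe the libraries.

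Cells with both chemokines were then set against cells with neither, in each library separately. Of 1255 genes of at least 100 CPM in either set of cells, 17 were at least 2-fold higher in both libraries (1.35%) and 4 at least 2-fold lower (0.319%), and the median log2 difference was 0.05 for control and 0.06 for stressed cells. The sets were 39 against 496 cells and 54 against 873 cells, with median depths of 2513 against 2145.5 UMIs in the control and 5127.5 against 3682 UMIs in the stressed library. Of the 17, 14 were under 100 CPM in the cells with neither in both libraries, so they entered only through the cells with both, where they had to be higher. Asking for 100 CPM over all microglia-like cells of each library, a rule added after the values were seen, left 3 of 1124 genes higher (Csf1, Gm13889 and Dtnbp1, 0.267%) and 3 lower (Tnfaip8l2, Cenpa and Tubgcp5, 0.267%). The values that follow describe the cells with both and support no count. Ccl2, which attracts monocytes, stood at 252 against 19.98 CPM in the control and 144 against 7.39 CPM in the stressed library, log2 differences of 3.65 and 4.28. Atf3 stood at 352 against 31.5 CPM and 372 against 28.5 CPM (3.48 and 3.70). Plaur, the receptor of urokinase, stood at 184 against 16.1 CPM and 109 against 14.3 CPM (3.51 and 2.93).

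Rcan1 was next, at 302 against 42.3 CPM in the control and 337 against 35.4 CPM in the stressed library (2.84 and 3.25). Csf1 stood at 688 against 131 CPM and 722 against 100.3 CPM (2.396 and 2.85). Id2, an inhibitor of helix-loop-helix transcription factors, stood at 201 against 49.2 CPM and 235 against 27.5 CPM (2.03 and 3.10). Fam20c, Slc23a2, Rab7b and Vat1 had log2 differences between 1.39 and 2.12. The other 7 higher genes were Mapkapk2, Gm13889, Lpgat1, Atf4, Dtnbp1, Slc15a3 and Atp6v1a, named outside the rule after their values were seen. Among them, Atf4 is the transcription factor of the integrated stress response and Mapkapk2 a kinase below p38.

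The genes lower in cells with both were fewer and rested on few UMIs. Tnfaip8l2, a negative regulator of immune signalling, stood at 50.3 against 141 CPM in the control and 63.1 against 179 CPM in the stressed library (-1.49 and -1.50). Cenpa, a histone variant of centromeres, stood at 50.3 against 122 CPM and 31.6 against 131 CPM (-1.28 and -2.05). Arhgap45 (-1.97 and -1.04) and Tubgcp5 (-1.003 and -1.69) also passed in both libraries. Tmem119 was at 67.1 against 131 CPM and 52.6 against 139 CPM (-0.97 and -1.40), and Txnip, Vsir, Ssh2, Bmyc and Igfbp4 were lower by less than 2-fold in at least 1 library.

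**Figure D5:**
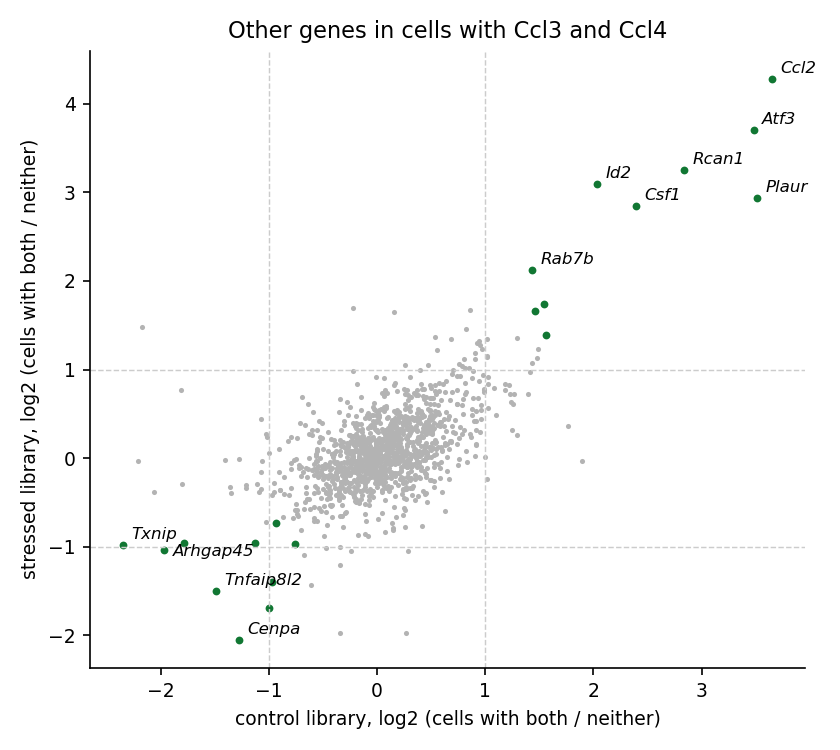
Log2 difference between microglia-like cells with both chemokines and cells with neither, in the control (x axis) and the stressed library (y axis), for 1255 genes without Ccl3 and Ccl4. Each point is a gene, green points are the 10 highest and 10 lowest genes by the smaller difference, and dashed lines mark a 2-fold difference. Ccl2, Atf3, Plaur, Rcan1 and Csf1 stand apart at the upper right, with differences of at least 2.396 in both libraries.

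By list, the members above 2-fold were few. Over all 1255 genes, 1.35% were higher in both libraries and 0.319% lower. At these shares lists of such sizes can hold none, so a count of none is not a result about a list. Of 28 NF-kB response genes, 5 reached 100 CPM in either set, and 2 of them were higher in both libraries (Plaur and Csf1), of which only Csf1 also reached it over all microglia-like cells. Cd83 stood at 0.89 and 0.99. Il1b and Tnf, the classical cytokines of the pathway, were too low to measure, with 0 and 1 control UMIs and 1 and 5 stressed UMIs in the cells with both. Of 22 immediate early genes, 3 reached 100 CPM, of which Atf3, through the cells with both, was higher, while Rhob (0.45 and 0.62) and Jund (0.26 and -0.04) were not past 2-fold. None of the 15 of 25 activation genes at that level passed, with Cd9 at 0.88 and 0.91, Fabp5 at 0.40 and 0.99 and Spp1 at -0.01 and 0.92. None of the 19 of 23 resting microglia genes passed in both libraries, with Sall1 at -1.03 and -0.72.

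None of the 6 of 11 heat shock genes and none of the 9 of 16 glycolysis and hypoxia genes were past 2-fold in both libraries. With 1.35% of all 1255 genes higher and 0.319% lower, these counts of none say little about the lists. The whole immediate early list summed to 1450 CPM in cells with both against 756 in cells with neither in the control, and to 1690 against 822 in the stressed library. The NF-kB response list summed to 2188 against 1017 and 2223 against 1106 CPM. Markers of other cell types did not differ in this way, with 579 against 558 and 459 against 491 CPM for border-associated macrophages, and 33.5 against 50.0 and 35.1 against 48.8 CPM for neural cells. Of these lists, 1 of 11 macrophage markers (Cd163) and 5 of 14 neural markers (Sox2, Dlx1, Six3, Pax6 and Neurod1) were at 0 in all of these cells. Monocyte and granulocyte markers, nearly all Lyz2, summed to 151 against 327 and 477 against 394 CPM.

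The cells with both chemokines came mostly from 2 clusters. Of the cells with both, 69.2% of the control and 75.9% of the stressed ones were in the Gpnmb and Csf1 clusters. Within those clusters alone (27 and 41 cells with both), 14 of 1231 genes were at least 2-fold higher in both libraries and 1 was lower. Of the 14, 10 were among the 17. These are largely the same cells with both, under the same minimum in either set, so the overlap is no separate support. Ccl2 stood at 2.52 and 3.79, Plaur at 3.03 and 2.39, Atf3 at 2.42 and 2.91, Csf1 at 1.98 and 2.18, Id2 at 1.79 and 2.84 and Rcan1 at 1.82 and 3.06. Tmem119 stood at -0.53 and -0.04 there.

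The transcript of Ccr1, a receptor of Ccl3, was low in microglia-like cells. It stood at 21.9 CPM in the control (15.6 to 29.8) and 32.3 CPM (27.6 to 37.6) in the stressed library, and at 63.9 and 37.9 CPM in border-associated-like macrophages. Ccr3 had 0 UMIs in microglia-like cells of both libraries, where 3 counts would be 1.64 and 0.581 CPM.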

How the data were processed

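The deposited matrices hold whole-number UMI counts per gene and cell barcode, 1 matrix per library, per the file headers. The submitters' processing notes name Cell Ranger 3.0.0, STAR, Seurat 2.4 and the builds GRCm38.p5 and mm10, without their order or role. Sorting gates excluded doublets, per the labels' protocols. Everything that follows was computed from these counts.

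Barcodes under 500 genes or over 10% mitochondrial UMIs were dropped. The rest were clustered with scanpy 1.11.5 (2000 variable genes, 30 components, 15 neighbours, Leiden resolution 0.5) with Ccl3, Ccl4 and sex-linked genes left out. Clusters were named from marker lists. A doublet caller marked 2 control and 3 stressed cells, too few to rely on, so the 3.5% of barcodes with the highest scores were removed only as an alternative. At Leiden resolution 1 a small cluster led by Lgals3 and Gpnmb stayed unnamed. Levels are UMIs summed over cells per 1000000 (CPM). Ratios have exact conditional intervals, shares Clopper-Pearson intervals and counts exact Poisson intervals, all at 95% and for counting error only. For shares and joint detection each cell was thinned to 1000 UMIs, which left out 30 control and 2 stressed microglia-like cells.

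Genes other than the members were named as follows. The 8 genes most correlated with each member, the 10 highest and 10 lowest genes in cells with both against cells with neither, up to 4 genes of each list by the size of that difference, and the receptors Ccr1 and Ccr3 could be named. An item that the rule also names is not reported here. The size rule asked for a 2-fold difference in both libraries among genes of at least 100 CPM in either set of cells. For ratios, an empty sum was replaced by 3 counts. The members and gene lists were chosen with earlier results of these data known. The gene-wise steps were tested on simulated data. As alternatives, size factors came from edgeR 4.0.16 and DESeq2 1.42.0, with no count test, since there was 1 library per condition.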

Additional observations from a re-analysis of the deposited data

Results flagged for a closer look

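The stressed to control ratio of both chemokines pointed in opposite directions in clusters of the same libraries, each with a counting interval clear of 0. For Ccl3 the log2 ratio was 0.80 in the cluster led by Gpnmb and 0.32 in the cluster led by Csf1, but -0.65 in the cluster led by Tmem119. For Ccl4 it was 0.77 in the Gpnmb cluster and 0.36 in the Csf1 cluster, but -2.07 in the Tmem119 cluster and -0.74 in the Mki67 cluster. The difference between clusters was not tested, because each condition had 1 library. In the Tmem119 cluster 3 cells held 63.4% of the control and 62.1% of the stressed Ccl4 UMIs, and in the Mki67 cluster 87.4% and 59.6%. Without the top 1% of cells the Ccl4 ratio was -2.55 (-3.27 to -1.86) in the Tmem119 cluster. In the Mki67 cluster it was -0.44 (-1.04 to 0.19), an interval that includes 0. Over 6 alternatives the Ccl3 ratio of the Tmem119 cluster lay between -0.65 and -0.19. Its interval included 0 with stricter filters (-0.42, -0.90 to 0.09) and with fewer immediate early UMIs (-0.19, -0.72 to 0.36). The same held in Xist cells.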

How the results depend on the processing

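No paired analysis was possible because each condition had 1 library and the labels give no replicate numbers. The alternatives for single clusters, the exclusion of shared barcodes, the equal weighting of clusters, the restriction to 2 clusters and the minimum over all microglia-like cells were chosen after seeing the data. Of the class-wide Ccl3 log2 ratio, 10 of 14 alternatives stayed within the counting interval. It was 0.079 at 1000 UMIs per cell, 0.082 in cells with fewer immediate early UMIs, 0.51 in Xist cells and 0.092 with 4 clusters weighted equally. The Ccl4 ratio was not stable in direction. It was -0.33 as a mean over cells, -0.40 at 1000 UMIs per cell, -0.40 in cells with fewer immediate early UMIs and -0.42 with clusters weighted equally. It was 0.22 with stricter quality filters, 0.049 in marker-gated cells and 0.77 in Xist cells.

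Within clusters, the Ccl3 ratio of the Csf1 cluster became -0.037 at 1000 UMIs per cell. The Ccl4 ratio became -0.29 in the Csf1 cluster at 1000 UMIs per cell and -2.26 in its cells with fewer immediate early UMIs, and 1.33 with stricter filters. In the Tmem119 cluster stricter filters gave -1.21. The Ccl4 ratio became 0.12 at 1000 UMIs per cell and 2.81 in Xist cells of the Mki67 cluster, and 0.43 (-1.97 to 3.73) in cells of the Tmem119 cluster with fewer immediate early UMIs. The causes were not tested.

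The share of control cells with a Ccl3 UMI was 28.4% with stricter filters, 13.1% at 500 UMIs and 34.4% without thinning. In the stressed library it was 24.0% with stricter filters, 16.9% in cells with fewer immediate early UMIs, 13.7% at 500 UMIs and 39.9% without thinning. For Ccl4 in these last 3 settings the shares were 5.92%, 5.76% and 13.1% in the control and 2.97%, 4.96% and 15.3% in the stressed library. The share of stressed Ccl4 cells with Ccl3 was 41.2% in cells with fewer immediate early UMIs and 73.9% without thinning.

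The control ratio of Ccl3 to Ccl4 UMIs was 1.86 with stricter filters, 1.27 in cells without G2 and mitosis UMIs, 2.42 with fewer immediate early UMIs, 2.27 in Xist cells and 2.28 without the top 1% of cells. The stressed ratio was 1.79 without G2 and mitosis UMIs, 3.38 with fewer immediate early UMIs and 2.99 without the top 1%. The top 1% of control cells held 48.3% of Ccl4 UMIs at 1000 UMIs per cell. The stressed correlation was 0.32 with fewer immediate early UMIs, 0.38 as Spearman's rho and 0.38 at 1000 UMIs per cell.

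Counts of genes moved with the size rule, and so did the number of genes tested, which was 1255 in the main setting. At 50 CPM 37 of 2477 genes were higher and 23 lower, and at 1.5-fold 71 and 19 of 1255. With no minimum but 1 UMI they were 2780 and 127 of 12042. The reason is that a gene with no UMI in the smaller set was set to 3 counts. With at least 2 UMIs of the pair asked for they were 7 and 2 of 1211. Without cells in G2 or mitosis they were 32 and 13 of 1236. In the Gpnmb and Csf1 clusters alone 14 of 1231 genes were higher and 1 lower. With 100 CPM asked for over all microglia-like cells 3 of 1124 were higher and 3 lower. At 1000 UMIs a cell with few molecules of either gene can be missed.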

Other observations

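Chemokines other than Ccl3 and Ccl4 spanned a wide range of levels. Ccl6 and Ccl9, constitutive chemokines of myeloid cells, stood at 261 and 269 CPM in control and 177 and 178 CPM in stressed microglia-like cells, and the top 1% of cells held 22.0% and 12.8% of their control UMIs. Ccl12 stood at 117 and 86.7 CPM, with 29.4% and 24.1% of its UMIs in the top 1% of cells. Ccl2 stood at 43.2 and 17.996 CPM, with 40.5% and 48.4% in the top 1%. Such shares rise as counts fall, and Ccl2 had 79 and 93 UMIs, so they are not compared with those of Ccl4. Ccl7 had 10 UMIs in each library. No UMI of Ccl5, Ccl8, Ccl11, Ccl22, Cxcl1, Cxcl2 or Cxcl10 was found in the microglia-like cells of either library, where 3 counts would be 1.64 CPM in the control and 0.581 CPM in the stressed library.

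Ccl3 was found more often in cells with more RNA, also at equal depth. From the lowest to the highest tertile of UMIs per cell, the share of cells with a Ccl3 UMI at 1000 UMIs went from 15.3% to 29.0% in the control and from 12.9% to 29.8% in the stressed library. For Ccl4 the shares were 5.94% (3.11 to 10.1) and 10.4% (6.77 to 15.1) in the control and 5.25% (3.24 to 7.99) and 10.5% (7.59 to 13.99) in the stressed library, with overlapping intervals. The Ccl4 level went from 366 to 287 CPM in the control and from 107 to 377 CPM in the stressed library. The share of cells in each cluster was not held fixed here.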
